A study of Mus musculus with 10 samples.

Results

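Sebum lipids in mouse skin are made by a small set of enzymes, and 9 genes of this lipid programme were followed here in dorsal skin of newborn and adult mice with and without Dlx4, a homeobox transcription factor gene. The genes were Scd3, Elovl3, Mc5r, Awat1, Awat2, Dgat2l6, Far2, Soat1 and Fa2h, taken by symbol from the gene table, which holds 24543 entries. All 9 were found, and all 9 passed the filter on low values, at least 1 RPKM (reads per gene normalized to gene length and sequencing depth) in at least 2 of the 10 libraries, which 14026 entries passed. Total RNA of dorsal skin from C57BL/6 mice was sequenced in 4 groups: 3 libraries from Dlx4-WT and 3 from Dlx4-KO mice at postnatal day 1 (P1), and 2 of each genotype at postnatal day 60 (P60). Per the series title the WT mice were littermates, but the labels give neither the construct of the Dlx4 allele nor the sex or litter of a sample, and WT and KO are their genotype names. Whole skin was used, so fewer sebaceous cells and less RNA per sebaceous cell cannot be told apart.

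The libraries held 36131011 to 74916106 alignments. Per the authors' sheet of libraries, the P1 and P60 libraries were sequenced in separate runs. Dlx4 stood at 2.93, 3.78 and 3.42 RPKM in the WT P1 libraries and at 1.77, 2.45 and 1.62 RPKM in the KO P1 libraries, lower in each KO library than in any WT library, and at P60 it was at 0.125 RPKM or less in all 4 libraries, where it cannot check the labels. Which exons those reads came from was not analysed here. Xist, the RNA of the inactive X chromosome, was at 29.2 to 39.8 RPKM in 5 of the 6 P1 libraries, but at 0.0536 RPKM in KO P1 2 and at 0.0477 to 0.105 RPKM in all 4 P60 libraries, where the Y-linked Eif2s3y was at 22.3 RPKM or more. Age, sequencing run and, but for 1 library, sex transcripts therefore cannot be told apart. Keratinocytes were present throughout, with Krt5 at 1086 to 1598 RPKM. Krt79, a keratin known from the sebaceous duct and gland, was at 324 to 403 RPKM at P1 and at 58.6 to 214 RPKM at P60. Its RNA was thus detected in every library, but which cells it came from was not tested.

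Sebaceous glands are attached to hair follicles, and their cells fill with lipid and burst to release sebum. Mouse sebum is rich in wax esters and sterol esters, which are built from fatty acids that are first lengthened, desaturated and in part reduced to alcohols. The 9 genes cover these steps: a receptor of the gland (Mc5r), fatty acid modification (Elovl3, Scd3, Fa2h), alcohol synthesis (Far2) and esterification (Awat1, Awat2, Dgat2l6, Soat1). Several are not exclusive to the gland. Elovl3 is also known from brown fat, Fa2h from myelin-forming Schwann cells and keratinocytes, and Soat1 from many cells.

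The wax and related acyltransferases Awat2, Dgat2l6 and Awat1 lie side by side on the X chromosome, within 175985 bp of mm10 (X:100402221-100578205), with Otud6a and Igbp1 in the same interval. Awat2 is on the minus strand at X:100402221-100442717, and Dgat2l6 (X:100524838-100546144) and Awat1 (X:100572251-100578205) are on the plus strand. Far2, the fatty acyl-CoA reductase that provides the alcohol for a wax ester, is on chromosome 6 (6:148047259-148182758, plus strand). These 4 genes, the wax and related acyltransferases and Far2, were highest in the same adult library and lowest in the same other one. The same 2 ends were found for 8 of the 9 genes, for 10 of 17 further sebaceous genes and for 22.4% of all genes tested. With age, by contrast, Awat1 and Far2 fell and Awat2 and Dgat2l6 did not pass the test. The promoters of all 4 genes are shown for these reasons, though the shared ends are not particular to them. Each runs 5′ to 3′ on the strand of its gene from 250 bases before to 50 bases after the RefSeq start (GRCm38.p6), at chrX:100571997-100572296 (plus) for Awat1, chrX:100442668-100442967 (minus) for the farther of the 2 starts of Awat2, chrX:100524588-100524887 (plus) for Dgat2l6 and chr6:148047166-148047465 (plus) for Far2. Capitals mark CCAAT on either strand, so ATTGG is the same motif on the other strand.
Awat1: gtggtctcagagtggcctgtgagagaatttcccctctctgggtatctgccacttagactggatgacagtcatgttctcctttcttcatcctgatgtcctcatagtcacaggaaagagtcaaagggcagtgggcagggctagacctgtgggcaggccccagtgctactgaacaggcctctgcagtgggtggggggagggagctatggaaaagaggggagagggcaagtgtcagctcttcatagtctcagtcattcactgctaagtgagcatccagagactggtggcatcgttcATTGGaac
Awat2: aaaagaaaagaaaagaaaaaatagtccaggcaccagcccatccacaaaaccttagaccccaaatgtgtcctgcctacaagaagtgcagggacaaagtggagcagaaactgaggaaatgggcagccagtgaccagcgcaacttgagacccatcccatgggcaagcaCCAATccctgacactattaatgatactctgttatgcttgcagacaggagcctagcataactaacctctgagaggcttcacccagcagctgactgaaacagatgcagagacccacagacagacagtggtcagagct
Dgat2l6: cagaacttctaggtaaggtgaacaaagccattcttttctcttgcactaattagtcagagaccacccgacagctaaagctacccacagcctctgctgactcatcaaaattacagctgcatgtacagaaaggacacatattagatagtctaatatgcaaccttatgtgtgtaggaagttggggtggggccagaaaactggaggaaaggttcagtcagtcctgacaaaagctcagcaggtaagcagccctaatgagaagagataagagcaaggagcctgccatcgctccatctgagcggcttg
Far2: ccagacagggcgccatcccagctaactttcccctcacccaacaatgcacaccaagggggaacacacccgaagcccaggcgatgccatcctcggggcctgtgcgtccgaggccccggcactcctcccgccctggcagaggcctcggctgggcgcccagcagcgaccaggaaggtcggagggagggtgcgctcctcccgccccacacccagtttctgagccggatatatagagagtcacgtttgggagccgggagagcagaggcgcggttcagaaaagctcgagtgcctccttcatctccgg

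In mm10 Scd3 (19:44203269-44244016) and Elovl3 (19:46131897-46135694) are on the plus strand of chromosome 19, Soat1 (1:156424525-156474331) and Fa2h (8:111345135-111393824) are on minus strands, and Mc5r is on chromosome 18. RefSeq promoters were matched for 6 of the 9 genes, 7 promoters in all: Soat1, Far2, Scd3, Dgat2l6, Awat1 and both starts of Awat2. CCAAT, searched on both strands, was in 4 of the 7 (Soat1, Awat1 and both Awat2 promoters), and it is in 37.4% of the 32851 RefSeq mouse promoters of this length. None of the 7 held the TATA box TATAAA (13.6% of all promoters), the nuclear receptor half-site AGGTCA (16.3%), its direct repeat with a 1-base spacer bound by PPAR with RXR (0.0396%), the E-box CACGTG (7.15%) or the sterol regulatory element TCACNCCAC (1.24%). The half-site is contained in the direct repeat, and a window without these letters says nothing about binding elsewhere. Counts per gene do not show which of the 2 Awat2 starts was used.

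In newborn skin the KO libraries were a little higher for most of the genes, but no difference passed the test. In adult skin all 9 were higher on average in KO, again with none passing, and WT P60 1 lay above KO P60 2 for 7 of them. From P1 to P60, 5 of the 9 fell, 1 rose (Scd3) and 3 did not pass. Among all genes tested 57.3% fell and 24.3% rose, so these counts are not above the background. Every difference below is on the scale of log2(RPKM + 0.5), with its standard error (SE), from limma across all genes tested, and adjusted p is the Benjamini-Hochberg value over all 14026. The libraries are named by genotype, age and number, and values per library are given in the order of their numbers.

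**Figure D1:**
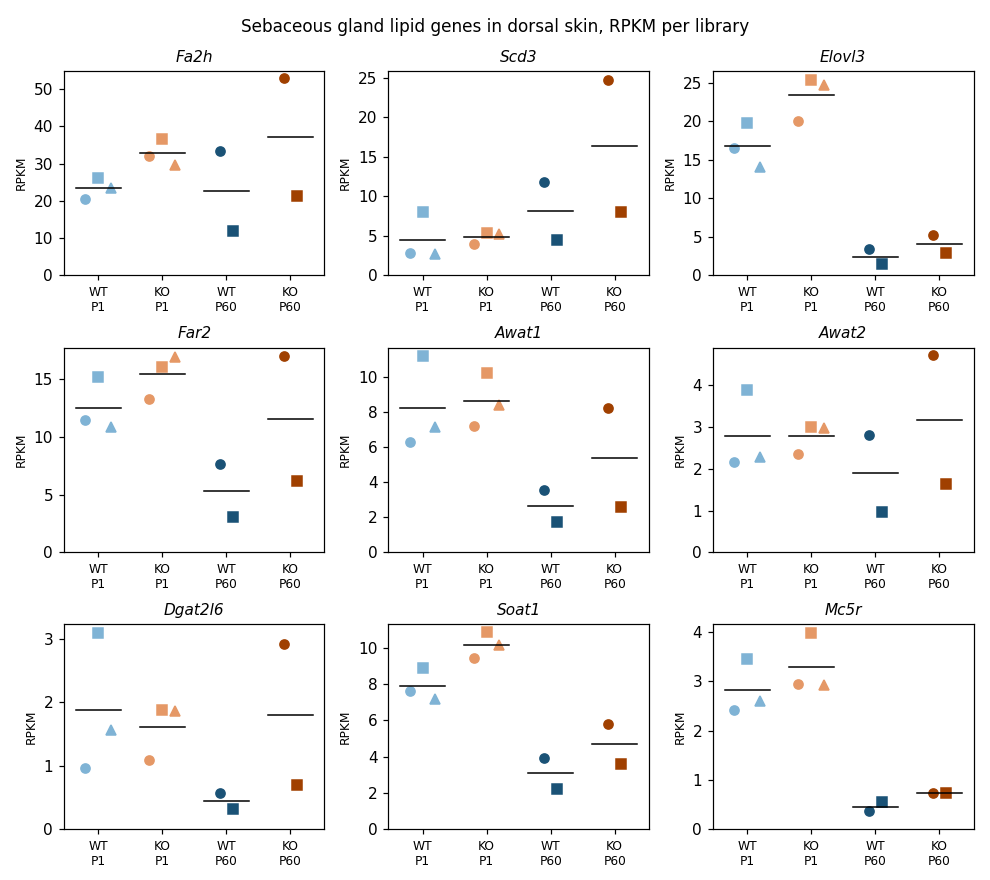
RPKM (linear axis from 0) of each of the 9 genes, 1 panel a gene, for the WT P1, KO P1, WT P60 and KO P60 libraries; circles, squares and triangles are libraries 1, 2 and 3 of a group, and the line is the group mean. Elovl3, Mc5r and Soat1 were lower in all 4 P60 libraries than in all 6 P1 libraries, as were 50.1% of all genes tested. KO P60 1 was the highest adult library in all 9 panels, as it was for 40% of all genes.

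Mc5r, the melanocortin 5 receptor, which mice need for normal sebum output, was at 2.43, 3.45 and 2.60 RPKM in WT P1 and at 2.96, 3.98 and 2.93 RPKM in KO P1. Its adult levels were 0.359 and 0.550 RPKM in WT and 0.737 and 0.723 RPKM in KO. The genotypes overlapped at P1 and not at P60, and every adult library lay below every newborn one. KO minus WT was 0.19 (SE 0.16, adjusted p = 1) at P1 and 0.37 (SE 0.19, adjusted p = 0.216) at P60. With age it fell by 1.70 (SE 0.12, adjusted p = 8.53e-07), and the mean of the P1 libraries was 5.16 times that of the P60 libraries. Of 6 other genes of the melanocortin system that could be tested, 4 fell with age and 0 rose (4 and 1 with median-of-ratios scaling). Among all genes 57.3% fell and 24.3% rose. Mc1r, the receptor of pigment cells, fell by 2.78 (SE 0.13, adjusted p = 5.80e-08). Pcsk2, a protease that trims melanocortin precursors, fell by 1.48 (SE 0.12) and Mc2r, the receptor for ACTH, by 1.45 (SE 0.15). Agrp, a melanocortin antagonist, fell by 0.74 (SE 0.12, adjusted p = 0.000188), a call that quantile normalization ended at -0.13 (adjusted p = 0.334). None of the 6 was called between genotypes at either age. Pomc, which encodes the melanocortin ligands, was under the filter, at 0.473 RPKM or less in every library.

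Elovl3, which lengthens saturated and monounsaturated fatty acids, was the second most abundant of the 9 in every newborn library. Its levels were 16.5, 19.8 and 14.0 RPKM in WT P1 and 20.04, 25.4 and 24.8 RPKM in KO P1. In adult skin they were 3.41 and 1.48 RPKM in WT and 5.20 and 2.86 RPKM in KO. Each KO P1 library was above each WT P1 library, whereas the adult genotypes overlapped and all adult libraries were below all newborn ones. The KO difference was 0.47 (SE 0.27, adjusted p = 1) at P1 and 0.65 (SE 0.33, adjusted p = 0.199) at P60. The fall with age, 2.53 (SE 0.21, adjusted p = 1.93e-06), was the greatest of the 9, with a P1 mean 6.21 times the P60 mean. Of 6 brown adipocyte genes tested 4 rose and 1 fell with age, where 24.3% of all genes rose and 57.3% fell. Their list includes Cidea, which is also in the list of further sebaceous genes. The defining brown fat gene Ucp1 was at 0.325 RPKM or less in every library. The part of brown adipocyte RNA in the levels of Elovl3 was not tested.

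Scd3, a stearoyl-CoA desaturase that in mouse skin is known from sebocytes, went the other way. It was at 2.80, 8.06 and 2.65 RPKM in WT P1 and at 4.03, 5.33 and 5.19 RPKM in KO P1. The adult values were 11.8 and 4.48 RPKM in WT and 24.8 and 7.95 RPKM in KO. Both genotype pairs overlapped, and so did the ages, since WT P60 2 lay below 3 of the newborn libraries and KO P60 2 just below WT P1 2. The difference of KO from WT was 0.25 (SE 0.50, 95% interval -0.86 to 1.37, adjusted p = 1) at P1 and 0.90 (SE 0.61, adjusted p = 0.338) at P60. Scd3 rose with age by 1.14 (SE 0.39, adjusted p = 0.0217), the only rise among the 9 genes. This call depended on single libraries, since the rise was 0.81 (adjusted p = 0.0993) without WT P60 1 and 0.74 (adjusted p = 0.104) without KO P60 1, and it also ended without a filter on low values (1.14, adjusted p = 0.0522). Of the 50-base stretches of Scd3 transcripts 6.57% also occur in other genes, chiefly Scd1 and Scd2, and the labels do not say how the authors counted such reads.

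Fa2h adds the hydroxyl group of 2-hydroxy fatty acids, and it was the most abundant of the 9 in 10 of 10 libraries. Its newborn levels were 20.4, 26.2 and 23.5 RPKM in WT and 32.0, 36.7 and 29.7 RPKM in KO. Adult levels were 33.4 and 11.9 RPKM in WT and 52.9 and 21.2 RPKM in KO. The P1 genotypes did not overlap, with KO higher, while at P60 the libraries numbered 1 were the higher ones in both genotypes. KO minus WT was 0.48 (SE 0.38, adjusted p = 1) at P1 and 0.73 (SE 0.46, adjusted p = 0.308) at P60, and the age difference was -0.09 (SE 0.30, 95% interval -0.76 to 0.58, adjusted p = 0.794). Schwann cell genes summed to 348 and 393 RPKM in WT P60 and 222 and 554 RPKM in KO P60. The part of Schwann cell RNA in the levels of Fa2h was not tested.

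Far2 makes fatty alcohols from fatty acyl-CoA. It was at 11.4, 15.2 and 10.9 RPKM in WT P1 and at 13.3, 16.0 and 17.0 RPKM in KO P1. At P60 it was at 7.67 and 3.01 RPKM in WT and at 17.0 and 6.14 RPKM in KO. KO P60 1 was just above the highest newborn library, and the other adult libraries were below all of them. The KO difference was 0.30 (SE 0.37, adjusted p = 1) at P1 and 1.01 (SE 0.45, adjusted p = 0.157) at P60. With age Far2 fell by 0.91 (SE 0.29, adjusted p = 0.0153). The fall no longer passed with median-of-ratios scaling (-0.50, adjusted p = 0.144), with quantile normalization (-0.52, adjusted p = 0.115), without WT P60 2 (-0.60, adjusted p = 0.0727) or without KO P60 2 (-0.56, adjusted p = 0.0679). Of its 50-base stretches 10.8% are shared, most of them with Ergic2, whose annotated transcripts overlap those of Far2, and without stated strand their reads cannot be told apart.

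Awat1 joins fatty alcohols and fatty acids to wax esters. It was at 6.31, 11.2 and 7.14 RPKM in WT P1 and at 7.18, 10.2 and 8.42 RPKM in KO P1, and at 3.53 and 1.73 RPKM in WT P60 and 8.23 and 2.56 RPKM in KO P60. KO P60 1 lay among the newborn libraries and the other adult libraries lay below them. The difference of KO from WT was 0.09 (SE 0.38, adjusted p = 1) at P1 and 0.79 (SE 0.46, adjusted p = 0.267) at P60. The fall with age was 1.15 (SE 0.30, adjusted p = 0.00471), and it narrowly missed the threshold with quantile normalization (-0.69, adjusted p = 0.0519).

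Awat2, a wax synthase of broader substrate range, was at 2.17, 3.90 and 2.28 RPKM in WT P1 and at 2.36, 3.00 and 2.97 RPKM in KO P1. Its adult levels were 2.82 and 0.970 RPKM in WT and 4.72 and 1.63 RPKM in KO. All 4 groups overlapped with their neighbours in the order of their means. KO minus WT was 0.03 (SE 0.37, 95% interval -0.80 to 0.86, adjusted p = 1) at P1 and 0.59 (SE 0.46, adjusted p = 0.399) at P60, and the age difference was -0.25 (SE 0.29, adjusted p = 0.443).

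Dgat2l6, a member of the same DGAT2 family of acyltransferases, was the least abundant of the 9 in 8 of 10 libraries. It was at 0.964, 3.09 and 1.56 RPKM in WT P1 and at 1.09, 1.88 and 1.86 RPKM in KO P1. The adult values were 0.563 and 0.321 RPKM in WT and 2.92 and 0.689 RPKM in KO, so both adult KO libraries were above both adult WT libraries. These levels stand for about 29 to 359 reads a library, taken from the alignments and the annotated exon length, so counting error weighs more here than for Fa2h, with about 1653 to 9872 reads. The KO difference was -0.09 (SE 0.41, 95% interval -1.01 to 0.83, adjusted p = 1) at P1 and 1.11 (SE 0.50, adjusted p = 0.161) at P60, and the age difference was -0.64 (SE 0.32, adjusted p = 0.0914).

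Soat1 esterifies cholesterol in the endoplasmic reticulum. It was at 7.62, 8.86 and 7.16 RPKM in WT P1 and at 9.45, 10.9 and 10.2 RPKM in KO P1. At P60 it was at 3.94 and 2.19 RPKM in WT and at 5.80 and 3.59 RPKM in KO. The newborn genotypes did not overlap, with KO higher, the adult genotypes overlapped, and all adult libraries were below all newborn ones. The difference of KO from WT was 0.35 (SE 0.20, adjusted p = 1) at P1 and 0.55 (SE 0.25, adjusted p = 0.156) at P60. The fall with age was 1.17 (SE 0.16, adjusted p = 6.70e-05).

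**Figure D2:**
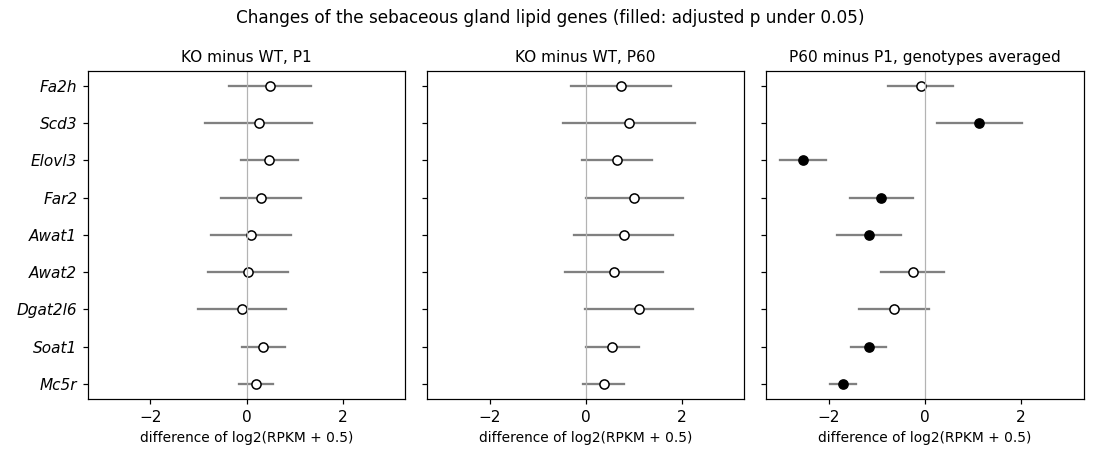
Differences of log2(RPKM + 0.5) with 95% intervals for each of the 9 genes: KO minus WT at P1 (left), KO minus WT at P60 (middle) and P60 minus P1 averaged over genotypes (right); filled points have an adjusted p under 0.05 in limma. All 9 intervals include 0 in the left and middle panels, and in the right panel 5 genes were lower, Scd3 was higher and 3 were open points. Among all genes 57.3% were called lower and 24.3% higher with age.

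In newborn skin 8 of the 9 genes were higher in KO, all but Dgat2l6, with a median difference of 0.25 against -0.01 for all genes tested. None of the 9 was called, as was none of all genes (0%), and none of the 9 had an unadjusted p under 0.05, which 130 of all genes had (0.927%). KO and WT libraries did not overlap for Elovl3, Soat1 and Fa2h, 3 of 9, where 2.08% of all genes were higher in every KO library than in any WT library. In the authors' deposited table the newborn ratio of KO over WT for Elovl3 was 1.40 (p = 0.190), and q was 1 for all 9 genes.

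In adult skin 9 of 9 were higher in KO, where 65.9% of all genes were higher, and the median difference was 0.73 against 0.13 for all genes. None of the 9 was called, where 11.1% of all genes were called (8.21% higher and 2.91% lower in KO, a split that turned to 448 genes higher and 1056 lower with median-of-ratios scaling), and none had an unadjusted p under 0.05, which 32.1% of all genes had. KO libraries lay above WT libraries for Mc5r and Dgat2l6 alone, 2 of 9, and for 42.7% of all genes. Without KO P60 2, which leaves KO P60 1 as the only adult KO library and assumes that it varies as the other groups do, Awat1 (1.54, adjusted p = 0.0352), Dgat2l6 (1.87, adjusted p = 0.0334) and Far2 (1.71, adjusted p = 0.0309) were called. Without KO P60 1 the same differences were 0.03, 0.35 and 0.31, and no gene of the 9 was called. The KO difference was greater at P60 than at P1 for 9 of 9 genes, by 0.18 to 1.21 with a median of 0.56 against 0.14 for all genes, but the test of that difference called none of them, and none of all genes (0%). None of the 9 had an unadjusted p under 0.05 for it, which 22.9% of all genes had, and quantile normalization turned it slightly negative for Elovl3, Mc5r and Soat1. Averaged over both ages 9 of 9 were higher in KO, with a median of 0.51 against 0.06 for all genes, and 0 were called, where 1 of all genes was (0.00713%). Elovl3 (0.56, SE 0.21), Soat1 (0.45, SE 0.16) and Mc5r (0.28, SE 0.12) had unadjusted p under 0.05 there, with adjusted p = 0.191, 0.179 and 0.248. In the authors' deposited table the adult ratio of KO over WT was 1.92 for Scd3 (p = 0.449), 2.92 for Dgat2l6 (p = 0.257) and 1.68 for Elovl3 (p = 0.108), and q was at least 0.717 for every one of the 9.

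The adult libraries followed a shared order that cut across genotype. KO P60 1 was highest, then WT P60 1, then KO P60 2, and WT P60 2 was lowest, in 7 of the 9 genes (all but Mc5r and Dgat2l6), an order held by 6.25% of all genes tested. KO P60 1 was the highest adult library for 9 of 9 genes (40% of all genes) and WT P60 2 the lowest for 8 of 9 (37.2%). This order was noted after the values had been seen, and the 9 genes are not independent of each other. The highest adult library was 2.05 times the lowest for Mc5r, 2.64 times for Soat1, 3.51 times for Elovl3, 4.44 times for Fa2h and 9.12 times for Dgat2l6. The median of the 9 was 4.76-fold against 1.44-fold for all genes with no value of 0, and 7 of 9 spanned over 3-fold where 6.91% of all genes did. At P1 the corresponding median over 6 libraries was 1.79-fold against 1.33-fold. Within WT alone, WT P60 1 was above WT P60 2 for 8 of 9 genes, by a median of 2.30-fold. KO P60 2 over WT P60 2, a pair of near equal depth (55987713 and 55722291 alignments), had a median of 1.77-fold. KO P60 2 over WT P60 1 had a median of 0.80-fold.

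**Figure D3:**
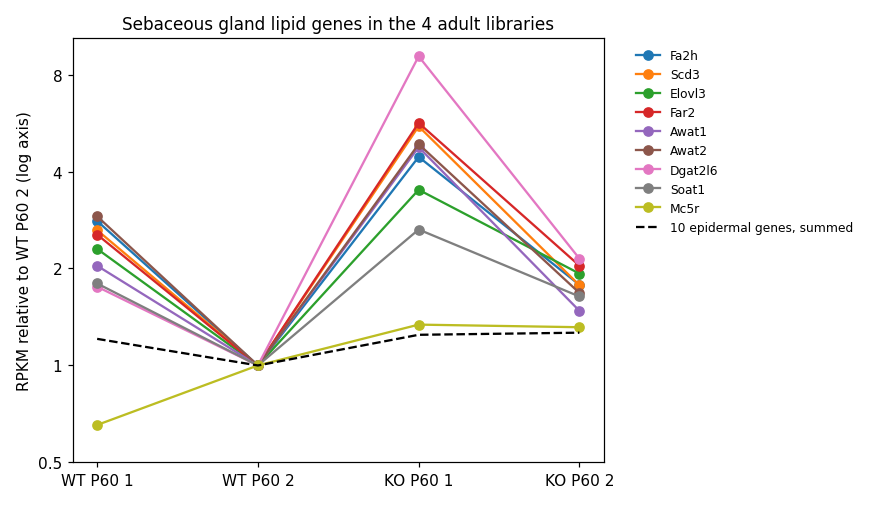
RPKM of each of the 9 genes in the 4 adult libraries relative to WT P60 2 (log axis); the dashed line is the summed RPKM of 10 epidermal keratinocyte genes. The lines of 8 genes dip at WT P60 2 and all 9 are highest at KO P60 1, reaching 9.12-fold for Dgat2l6, while the epidermal sum spans 1.26-fold and Mc5r 2.05-fold. Of the 10 summed genes, 7 were also lowest in WT P60 2 and 3 highest in KO P60 1.

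Summed over the 9 genes the adult libraries stood at 67.5 and 26.6 RPKM in WT and 122 and 47.3 RPKM in KO, a 4.59-fold span. The 10 epidermal keratinocyte genes of a list added after the values were seen summed to 6713 and 5551 RPKM in WT and 6911 and 7016 RPKM in KO, a 1.26-fold span. Of these, 7 were lowest in WT P60 2 (37.2% of all genes) and 3 highest in KO P60 1 (40%). Epidermal barrier lipid genes summed to 308 and 243 RPKM in WT and 369 and 311 RPKM in KO. Of these 15 genes 14 were higher in adult KO and 4 were called (2 with median-of-ratios scaling, 0 with quantile normalization). Among all genes 65.9% were higher and 8.21% were called higher. White adipocyte genes summed to 4823 and 5328 RPKM in WT and 3893 and 5165 RPKM in KO, the reverse order of the summed 9 genes over a 1.37-fold span. Gene by gene, however, 12 of the 14 were higher in adult KO (median 0.40; 10 of 14 with median-of-ratios scaling) and 0 were called, with Adipoq, the adipocyte hormone adiponectin, at 19.0 and 59.4 RPKM in WT and 74.7 and 88.1 RPKM in KO. Skeletal muscle genes made up 13.5% and 14.8% of the summed RPKM in WT and 6.28% and 10.2% in KO, so the library highest in the 9 genes was the lowest in muscle, and dermal matrix genes summed to 6093 and 7444 RPKM in WT and 29278 and 12749 RPKM in KO. Macrophage genes summed to 264 and 529 RPKM in WT and 798 and 750 RPKM in KO. All 14 of the matrix genes and 5 of 11 macrophage genes were called higher in adult KO, and 1 of 14 muscle genes was called lower. With median-of-ratios scaling 10 matrix and 4 macrophage genes were called higher and 3 muscle genes lower. All of these matrix, macrophage and muscle calls ended with quantile normalization, with a replicate block and without WT P1 1, KO P1 2, KO P1 3, WT P60 1 or KO P60 1. The part of epidermal, adipocyte, muscle, matrix and macrophage RNA in the differences of the 9 genes was not tested.

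Other genes of the gland gave a similar picture at P60 with smaller differences. Of 17 further sebaceous genes tested 17 were higher in KO, with a median of 0.49, and 2 passed the test. Among all genes 65.9% were higher in adult KO and 11.1% passed, so 2 of 17 is near that share. Mgst1, a glutathione transferase of the gland, rose by 0.75 (SE 0.19, adjusted p = 0.0403), from 38.5 and 46.3 RPKM in WT to 85.1 and 59.4 RPKM in KO. Lrig1, a marker of the stem cells above the gland, rose by 0.49 (SE 0.12, adjusted p = 0.0376), from 11.2 and 13.2 RPKM to 18.3 and 16.3 RPKM. Neither call held with median-of-ratios scaling (adjusted p = 0.0681 and 0.0937), quantile normalization, array weights or a replicate block, or without WT P1 1, any 1 of the KO P1 libraries, WT P60 1 or KO P60 1 (adjusted p = 0.290 and 0.272 for the last), and that of Mgst1 also ended without WT P60 2. The shared order of adult libraries was found in 6 of the 17: Krt79, Cidea, Elovl5, Elovl6, Fabp5 and Far1. It was held by 6.25% of all genes. It was also found in 6 of 15 related lipid enzymes, with Elovl5, Elovl6 and Far1 in both lists. In sterol and fatty acid synthesis 8 of 20 genes had it, and of the regulators of sebocytes 0 of 18, so it was not particular to genes of the gland. Of 15 related desaturases, elongases, reductases and acyltransferases 14 were higher in adult KO and 0 were called, the smallest p belonging to Acsbg1 (0.35, SE 0.15, adjusted p = 0.155), an acyl-CoA synthetase, and Scd1 (0.70, SE 0.32, adjusted p = 0.168), the major stearoyl-CoA desaturase of skin. Among 18 regulators of sebocytes such as Pparg 17 were higher and Lrig1 was the 1 called, and with median-of-ratios scaling 12 were higher. In sterol and fatty acid synthesis 17 of 20 were higher and 1 was called, the sterol desaturase Sc5d (0.70, SE 0.19, adjusted p = 0.0449), and 13 of 20 were higher with median-of-ratios scaling. The Sc5d call ended with that scaling (adjusted p = 0.0974), with quantile normalization, with a replicate block and without any 1 of the libraries other than WT P1 2 and WT P1 3 (adjusted p up to 0.287). At P1 no gene of these lists was called.

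With age 6 of the 9 genes were called, 5 lower and 1 higher, where 81.7% of all genes were called (57.3% lower and 24.3% higher), so the count itself is not above the background. Their median was -0.91 against -0.39 for all genes. Median-of-ratios scaling removes such a shift of all genes by its construction (median 0.00), so its loss is not a finding. With that scaling 50.05% of all called genes were higher in place of 29.8%. Under the same scaling the fall of Elovl3 (-2.14), Mc5r (-1.42), Soat1 (-0.78, adjusted p = 0.00147) and Awat1 (-0.77, adjusted p = 0.0385) still passed. So did the rise of Scd3 (1.53, adjusted p = 0.00496). The fall of Far2 did not, and the small negative differences of Awat2 and Fa2h became positive (0.10 and 0.34). The libraries of the ages did not overlap for Elovl3, Mc5r and Soat1, 3 of 9, where 50.1% of all genes were lower in every P60 library. Dgat2l6 was also called lower without KO P60 1 (-1.02, adjusted p = 0.00886), without WT P1 1 (-0.79, adjusted p = 0.0440) and with a replicate block (-0.64, adjusted p = 0.0211).

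Among the 17 further sebaceous genes 10 fell and 3 rose with age, with a median of -0.62, and with median-of-ratios scaling 7 fell and 4 rose. Of all genes 57.3% fell and 24.3% rose. The falls among these genes, the related lipid enzymes, the regulators and sterol and fatty acid synthesis are near that share. Prdm1, a transcriptional repressor of the sebaceous lineage, fell by 2.00 (SE 0.09, adjusted p = 4.92e-08), Lrig1 fell by 1.61 (SE 0.08) and Far1, the other fatty acyl-CoA reductase, fell by 2.11 (SE 0.15). Of the 15 related lipid enzymes 8 fell and 2 rose, and with median-of-ratios scaling 5 fell and 4 rose. Elovl7, another elongase, fell by 2.11 (SE 0.12), Scd2, another desaturase, by 2.00 (SE 0.14) and Cers3, a ceramide synthase of the epidermal barrier, by 0.76 (SE 0.09). The 18 regulators split into 10 lower and 5 higher (5 and 6 with median-of-ratios scaling), with the sterol regulator Srebf2 lower by -0.92 (SE 0.08). In sterol and fatty acid synthesis 12 of 20 fell and 4 rose (8 and 6 with median-of-ratios scaling), with Me1, a source of NADPH, higher by 0.96 (SE 0.11). Growing hair follicle genes fell in 16 of 16 cases, from 2077 to 3990 RPKM summed at P1 to 4.53 to 8.66 RPKM at P60, and all 14 muscle genes rose, and their part in the age differences of the 9 genes was not tested.

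The balance among the 9 genes was examined in 6 ratios, of which 4 did not overlap between the ages. Scd3 over Elovl3 was 0.170 to 0.407 within the 6 newborn libraries and 2.78 to 4.76 within the 4 adult ones. Awat1 over its X-linked neighbour Awat2 was 2.83 to 3.41 at P1 and 1.25 to 1.78 at P60. Fa2h over Far2 was 1.72 to 2.41 at P1 and 3.10 to 4.36 at P60, and Scd3 over Fa2h was 0.113 to 0.308 at P1 and 0.353 to 0.469 at P60. Awat1 over Far2 overlapped between the ages, at 0.496 to 0.738 and 0.416 to 0.574, and so did Awat1 over Dgat2l6, at 3.62 to 6.59 and 2.82 to 6.26. These ratios are of length-scaled levels within a library and so do not move with the scaling of a library. They were chosen after the values were seen and were given no test. How many ratios of other gene pairs separate by age was not counted, and 81.7% of all genes were called with age. The order of levels was accordingly Fa2h, Elovl3, Far2 from the top in all P1 libraries and Fa2h, Scd3, Far2 in all P60 libraries, with Dgat2l6 or Mc5r last.

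**Figure D4:**
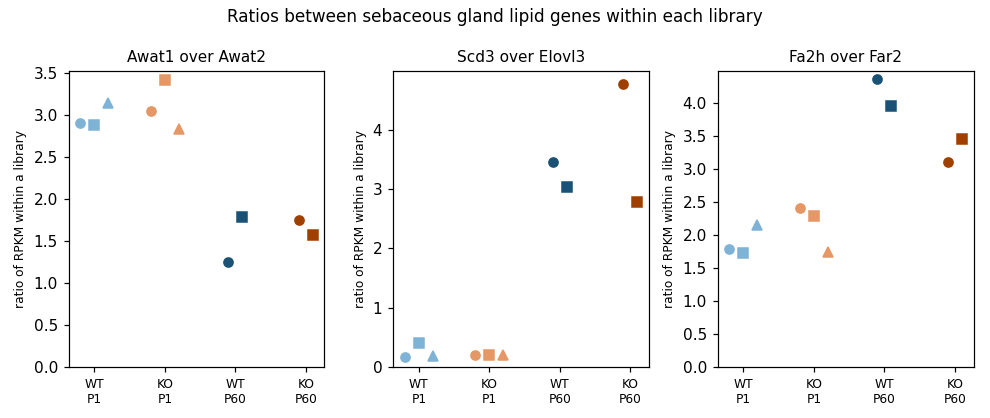
Ratios of RPKM between pairs of the 9 genes within each library (linear axes from 0): Awat1 over Awat2, Scd3 over Elovl3 and Fa2h over Far2; circles, squares and triangles are libraries 1, 2 and 3 of each group. For each pair the newborn and adult libraries occupy separate ranges, such as 2.83 to 3.41 against 1.25 to 1.78 for Awat1 over Awat2.

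Newborn libraries differed less. WT P1 2 was the highest WT library in 9 of 9 genes, as it was in 30.3% of all genes, and it was also highest in the summed growing hair follicle genes (3990 RPKM, against 2077 and 2217) and white adipocyte genes (3618 RPKM, against 2466 and 2191). The part of these in its level of the 9 genes was not tested. Without WT P1 2 none of the 9 was called between genotypes at P1. Among the KO P1 libraries KO P1 2 was the highest in 8 of 9 genes, all but Far2. It was also the newborn library with Xist at 0.0536 RPKM, so this difference in sex transcripts lay in KO alone. Its part in the newborn KO differences was not tested. Without KO P1 2 none of the 9 was called at P1, and the differences of Awat1 and Awat2 became -0.0347 and -0.0208.

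Likeness was measured as the root mean square difference between profiles of log2(RPKM + 0.5), each centred on its own mean over the 10 libraries, which share their depth and makeup. Far2 lay nearest to the mean of the others (0.18), followed by Awat1 (0.23), Soat1 (0.28), Dgat2l6 (0.33) and Awat2 (0.34), and Scd3 (1.11), Elovl3 (0.96) and Mc5r (0.65) lay farthest. Outside the set, the genes nearest to the mean of the 9 included Elovl4 (0.12), an elongase of very long chains, Pnpla5 (0.14), a lipase family gene, Tmem164 (0.17), Aadac (0.17), an esterase, Cybrd1 (0.19), Cyp3a57 (0.21) and Plet1 (0.21). Elovl4 was at 97.0 to 140 RPKM at P1 and at 83.6 and 40.6 RPKM in WT P60 and 111 and 58.8 RPKM in KO P60. This is the adult order of 7 of the 9 genes, but Elovl4 was picked for likeness over these same libraries.

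**Figure D5:**
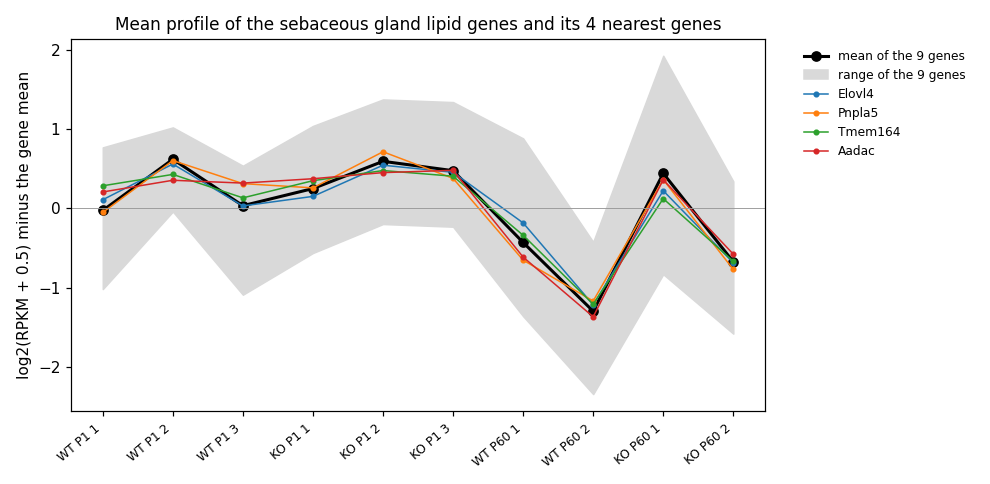
Mean centred profile of the 9 genes over the 10 libraries (black; grey band, lowest to highest of the 9) and of its 4 nearest genes, on the scale of log2(RPKM + 0.5) minus the mean of each gene. All 5 lines are lowest in WT P60 2 and lie above 0 in KO P60 1. The 4 genes were picked for likeness to this mean over the same 10 libraries, so the shared shape follows from that choice.

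Single genes had their own nearest profiles. Awat1 and Far2 were among the 3 nearest of each other (0.22), and Pnpla5 was nearest to Awat1 (0.18) and Aadac to Far2 (0.20). Awat2 was nearest to the elongases Elovl5 (0.17) and Elovl6 (0.18), and Fa2h to the ceramide synthase Cers4 (0.23) and to Elovl6 (0.24). Cst6, a protease inhibitor of skin, was nearest to Scd3 (0.29). Elovl3 was nearest to Hn1l (0.22) and Wisp1 (0.23), Mc5r to Tbc1d30 and Tagln3 (both 0.12), Dgat2l6 to Cybrd1 (0.28) and Soat1 to Golim4 (0.14).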

How the data were processed

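RNA-seq of dorsal skin gave 10 libraries. The deposited gene table holds RPKM, which the authors had normalized to gene length and library alignments. Per the submitters' processing notes TopHat2 2.1.0 and Partek were used with mm10, and no source used here names the annotation. The authors' sheet of libraries gave alignment counts and runs. The deposited comparison table holds group means that equal log2(RPKM + 0.1) within 5.64e-06, linear ratios by the authors, and p-values and q-values by the authors whose model was not checked. A score column by the authors, a signed fold change, was not used.

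For testing, log2(RPKM + 0.5), which understates changes of low genes, was fitted in R 4.3.3 by limma 3.58.1 with 4 group means, a variance trend and Benjamini-Hochberg adjustment per contrast, calling adjusted p under 0.05. The spread is pooled over groups. The labels do not say whether samples came from separate litters, so p-values measure the spread between these samples. The procedure was tested on simulated data. Alternatives were median-of-ratios and quantile scaling, pseudocounts of 0.1 and 1, filters on low values, array weights, no variance trend, fits by age, a replicate block and leaving out each library. Of 188 list symbols 187 were in the table, and Asip was not analysed here. From each list up to 4 called genes of the smallest p are named, or up to 2 where none was called; some genes this rule or the likeness measure would name are not reported here. Krt79 and other genes named outside this rule were chosen after their values were seen. The genes, lists, tests and alternatives were chosen with earlier results of these data known. Positions are from GENCODE M21 for mm10, which may not be the authors' annotation. Approximate read numbers are RPKM times annotated exon length times alignments.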

Additional observations from a re-analysis of the deposited data

How the results depend on the processing

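Between genotypes, 0 of the 9 genes was called at P1 in any alternative, and the same held for the difference of the KO effect between ages and for the average over ages. At P60 0 to 3 were called when 1 library was left out, 3 of them without KO P60 2, and 0 in every other alternative. With age 4 to 7 were called. Directions were less firm for small differences. At P1 array weights turned Dgat2l6 to 0.48, and leaving out 1 library gave ranges of -0.0012 to 0.72 for Scd3, -0.0673 to 0.32 for Awat1, -0.10 to 0.26 for Awat2 and -0.39 to 0.25 for Dgat2l6. At P60 Awat2 ranged from -0.0525 to 1.24, and its average over ages from -0.0114 to 0.64. The difference of the KO effect between ages turned to -0.0495 for Elovl3, -0.0875 for Mc5r and -0.0118 for Soat1 with quantile normalization and to -0.12 for Mc5r and -0.0086 for Fa2h with array weights. With 1 library left out it ranged from -0.14 to 1.44 for Scd3, -0.31 to 0.67 for Elovl3, -0.0622 to 1.45 for Awat1, -0.0822 to 1.21 for Awat2, -0.16 to 0.56 for Soat1 and -0.48 to 0.97 for Fa2h. With age Awat2 turned to 0.10 and Fa2h to 0.34 with median-of-ratios scaling and to 0.24 and 0.11 with quantile normalization, and without 1 library they ranged from -0.57 to 0.0727 and from -0.45 to 0.28. The cause of these turns was not tested. Over all genes the P60 count of 1560 became 55 with quantile normalization, 502 without a filter, 741 with array weights, 2 with a replicate block, 0 with the P60 groups alone and 0 to 2435 without 1 library. With median-of-ratios scaling 29.8% of the called P60 genes were higher in KO, and with quantile normalization 34.5%, in place of 73.8%. The P1 count of 0 became 2 without a filter and 26 with array weights. The count of 0 for the difference between ages reached 465 with array weights and 784 without KO P60 2, and the count of 1 for the average over ages reached 584 without KO P60 2.

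Same-numbered KO and WT libraries deviated from their group means with correlations of -0.17, 0.24 and -0.26 at P1 and 0.24 at P60. At P1 not every library correlated best with that of its own number. With 2 libraries per group at P60 only 0.24 or -0.24 is possible, so these correlations cannot decide whether the numbers pair the samples. The replicate block called 0 of the 9 genes at P1 and P60 and 7 with age, in place of 6. Depth limits Dgat2l6 most, where 3 reads stand for 0.0244 to 0.0506 RPKM by the annotated length, and with 2 adult libraries per genotype the median half-width of the 95% intervals of the 9 genes was 1.02 at P60.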

Other observations

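Scd3 and Scd1, neighbouring desaturase genes on chromosome 19, differed in their order among the adult libraries. Scd3 over Scd1 was 0.0364 to 0.0868 within the P1 libraries. At P60 it was 0.118 in WT P60 1 and 0.106 in KO P60 1, but 0.0249 in WT P60 2 and 0.0389 in KO P60 2, so the libraries numbered 1 stood above all P1 libraries in both genotypes. Scd1 itself was at 100 and 180 RPKM in WT P60 and 233 and 205 RPKM in KO P60, without the order of Scd3. This was chosen after the values were seen and has no test. Soat2, the other sterol acyltransferase, was at 0.939 to 1.10 RPKM at P1 and at 0.448 to 0.644 RPKM at P60. Scd4 was at 0.506 RPKM or less and Mogat2 at 0.0983 RPKM or less in every library, both under the filter.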
